A study of Homo sapiens with 14 samples.

Results

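The 200 CFTR residues that carried the largest share of ribosome footprints were described across 14 ribosome profiling libraries. For each library, the read count of a residue was divided by the sum over residues 21 to 1460, and a residue with no entry was counted as 0. The 200 residues with the highest mean share over the libraries, each library weighted equally, were taken from the 1440 residues in that range. They make up 13.9% of those residues. The members were therefore chosen by their own read shares, so shares, spacing and sharpness are given as descriptions without a test.

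Ribosome profiling reads the stretches of mRNA that a translating ribosome protects from nuclease. A codon at which ribosomes dwell longer yields more protected fragments, and peaks at single codons are a common feature of such profiles. CFTR is a chloride channel of the ABC transporter family. Its membrane domains and nucleotide-binding domains (NBD1 and NBD2), linked by a regulatory region, begin to fold while the chain is still being made, and the pace of the ribosome is known to bear on that folding.

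All libraries came from HEK293, an immortalized line of human embryonic kidney cells, made to overexpress 1 of 4 CFTR constructs differing in synonymous codons. WT (n = 5) carried the wild-type sequence. High-abc (n = 5) carried synonymous replacements whose positions the labels do not list. High-Leu558 (n = 2) was WT with CUC in place of UUA at Leu558 in NBD1. WT-Leu558-in-High-abc (n = 2), called the restored construct from here on, was High-abc returned to the WT codon at Leu558. No age, time or drug treatment is given for any group, and the cell type could not be checked against marker genes because the files hold CFTR positions alone. In the genome (GRCh38.p14) CFTR spans positions 117480025 to 117668665 of chromosome 7, but what was read here are the constructs. The residue number is the one the authors assigned to a read.

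The libraries held between 2396 and 31588 reads on the 1440 residues, with a median of 6195.5. The median member held between 4.0 and 57.5 reads in a library. Where a residue had 0 reads, its share may have been as high as 0.00950% in the deepest library and 0.125% in the shallowest, counting error only. In the 36 sets of values examined, no library was marked as standing apart from the other libraries of its construct. These sets did not cover every member. At residues 33 and 1221, WT replicate 3 lay well above all other WT libraries. Where a construct had 2 libraries, neither could be said to stand apart.

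The members took more of the reads than all the other residues together. They held 70569 of the 128550 reads. Per library, the share was 53.8% ± 2.66 (SD, n = 14), and it ranged from 50.4 to 60.2%. It was 54.5% ± 3.40 in WT (SD, n = 5), 53.5% ± 2.63 in High-abc (SD, n = 5), 52.0% ± 1.77 in High-Leu558 (SD, n = 2) and 54.3% ± 2.24 in the restored construct (SD, n = 2). The highest share, 60.2%, was that of WT replicate 2, the deepest library. The construct means lay within the range of the WT libraries.

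**Figure D1:**
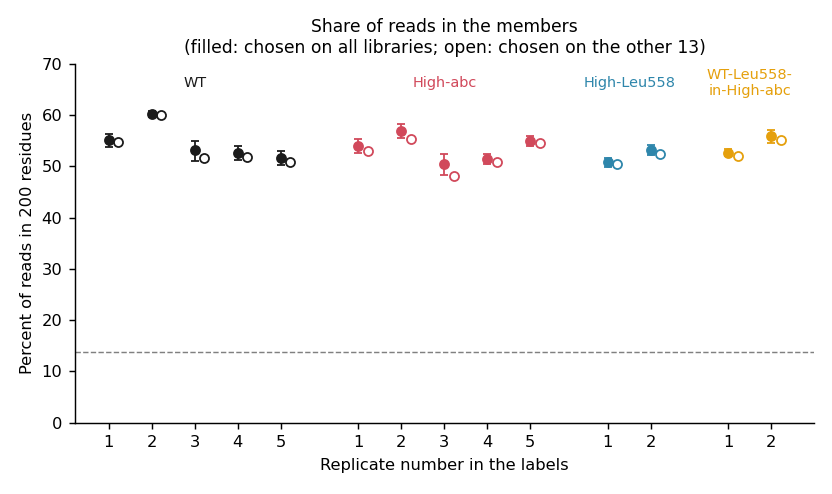
Percent of a library's reads on residues 21 to 1460 (vertical axis) that lay in 200 residues, for each library by construct and replicate number; filled points use the members chosen on all libraries, with 95% exact binomial intervals, and open points use 200 residues chosen on the other 13 libraries. The filled points run from 50.4 to 60.2% and the open points from 48.0 to 60.1%, against 13.9% of residues (dashed line).

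When a library's own reads had no part in the choice of residues, this share changed little. When the 200 residues were chosen from the other 13 libraries and then read in the library left out, they held 52.9% ± 2.92 of its reads (SD, n = 14; 48.0 to 60.1%). Between 193 and 198 of the 200 were members each time. Residues chosen without any library of a construct also held most of that construct's reads. The share was 52.7% ± 3.66 in WT, 52.3% ± 2.87 in High-abc (SD, n = 5 each), 51.2% ± 1.31 in High-Leu558 and 53.2% ± 2.19 in the restored construct (SD, n = 2 each). Of those lists, 189, 186, 192 and 193 residues were members. For a WT or High-abc library, both choices kept the library of the same replicate number in the other construct. Such libraries resembled each other, with Spearman's rho over the members from 0.563 to 0.719. The residues were thus not chosen independently of the library left out. Whether the share holds in an independent library was not tested.

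Within the list, reads were concentrated in few residues. The highest member alone held 2.83% of reads, the 10 highest 12.1%, the 20 highest 17.8%, the 50 highest 28.1% and the 100 highest 39.4%. The other 100 members shared 14.3%. Occupancy, the share of a residue divided by the share of the mean residue (0.0694%), ran from 1.64 to 40.8 with a median of 2.71. The residues outside the list had a median occupancy of 0.443. Summed over libraries, a member held between 104 and 3626 reads, with a median of 236. In all 14 libraries 164 members had at least 1 read, 27 had one in 13 and 9 in 12.

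The lower limit of the list fell in a gradual slope of values. The last members were residues 741, 1217, 1156, 298 and 820, with mean shares from 0.116 to 0.114%. The first residues left out were 1456, 1188, 1122, 1273 and 296, with 0.114 to 0.112%. The SD over libraries at these residues was 0.0550 to 0.0748 percentage points, far more than the steps between them.

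**Figure D2:**
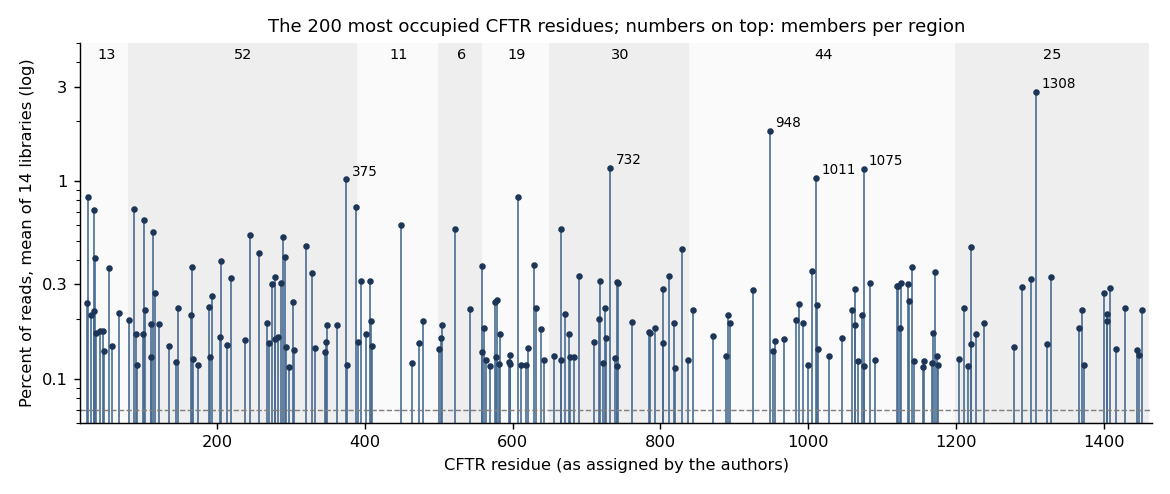
Mean percent of reads over the 14 libraries (vertical axis, log scale) for each of the 200 members at its residue number (horizontal axis); shading separates 8 regions, the number above each is its count of members, and the dashed line is the mean residue (0.0694%). The 6 highest members are numbered; residue 1308 stands at 2.83% and the median member at 0.188%.

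Residue 1308, in the region of NBD2, was the most occupied. It held 3.76, 1.93, 1.33, 3.41 and 2.29% of reads in WT replicates 1 to 5, 3.83, 1.96, 1.92, 3.55 and 2.93% in High-abc replicates 1 to 5, 3.89 and 3.23% in High-Leu558 and 3.23 and 2.38% in the restored construct. Replicates 1 and 4 of both WT and High-abc were high and replicates 2 and 3 of both were low, so the constructs overlapped while the replicate numbers ran in parallel.

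Residue 948, in the second membrane domain, came next. It held 1.35, 3.02, 2.70, 1.28 and 1.46% in the WT libraries, 1.30, 2.29, 2.67, 1.26 and 1.84% in High-abc, 1.05 and 1.41% in High-Leu558 and 1.58 and 1.94% in the restored construct. Here replicates 2 and 3 of WT and High-abc were the high ones and replicates 1 and 4 the low ones, the reverse of residue 1308. Residue 732, in the regulatory region, held 1.17, 1.14, 0.781, 1.27 and 0.898% in the WT libraries, 1.20, 1.77, 0.459, 1.38 and 1.29% in those of High-abc, 1.00 and 1.39% in High-Leu558 and 1.31 and 1.33% in the restored construct. Replicate 3 was the lowest library of both WT and High-abc.

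Residues 1075 and 1011, both in the second membrane domain, were highest in replicate 2 of WT and of High-abc. Residue 1075 held 1.42, 1.94, 0.547, 0.927 and 0.634% in the WT libraries, 1.74, 2.55, 0.835, 1.10 and 0.792% in those of High-abc, 1.00 and 0.907% in High-Leu558 and 1.02 and 0.671% in the restored construct. Residue 1011 held 1.86, 1.95, 1.13, 0.464 and 0.616% in the WT libraries, 1.46, 2.63, 0.876, 0.745 and 0.638% in those of High-abc, 0.741 and 0.255% in High-Leu558 and 0.430 and 0.775% in the restored construct. At residue 1011 both High-Leu558 libraries and both restored libraries lay below replicates 1, 2 and 3 of WT, and the groups still overlapped with replicates 4 and 5.

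The other members of the 10 highest were residues 375 and 388 near the end of the first membrane domain, 26 near the N-terminus, 608 in the last part of NBD1 and 88 at the start of the first membrane domain. Over the 14 libraries residue 375 ranged over 0.611 to 1.81%, median 0.931%, and residue 388 over 0.204 to 1.09%, median 0.796%. Residue 26 ranged over 0.391 to 1.28%, median 0.844%. Each of these 3 was read above the mean residue in every library. Residue 608 ranged over 0.296 to 1.44%, median 0.916%, with replicates 1 and 2 of WT and High-abc lowest. Residue 88 ranged over 0.289 to 1.34%, median 0.716%, with 0.289 and 0.397% in the High-Leu558 libraries and 1.09 and 1.34% in the restored ones. With so few libraries, the lack of overlap between these groups does not by itself show a difference, and the High-abc libraries overlapped both. Residue 88 was not among the members that passed for any difference among the constructs in the edgeR fit without a term for the replicate number. In the order of levels, neighbours after residue 948 differed by less than their SD between libraries (0.254 to 0.687 percentage points for the members ranked 3 to 10).

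Ranks 11 to 20 were residues 33 (0.715%), 101 (0.634%), 449 (0.597%), 666 (0.570%), 522 (0.570%), 113 (0.555%), 245 (0.533%), 289 (0.521%), 320 (0.472%) and 1221 (0.467%). Of the 20 highest, 8 lay in the first membrane domain, 3 in the second, 2 each in the N-terminal region, the regulatory region and the region of NBD2, and 1 in each of the 3 stretches of NBD1.

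The members were spread along the whole chain, from residue 24 to residue 1452, and were densest in the N-terminal region and the last part of NBD1. Of the 60 residues of the N-terminal region 13 were members (21.7%), and of the 90 in the last part of NBD1 19 were (21.1%). The first membrane domain held 52 members in 310 residues (16.8%) and the regulatory region 30 in 190 (15.8%). The second membrane domain had 44 in 360 (12.2%). The first part of NBD1 had 11 in 110 and its alpha-subdomain region 6 in 60 (10.0% each). The region from NBD2 to the C-terminus was the sparsest, with 25 in 260 (9.62%). These 8 regions end at rounded residue numbers and only approximate the domains.

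Distances between members ranged from direct neighbours to gaps of 40 residues. The median distance from a member to the next was 5 residues (quartiles 2 and 10). Of the 199 distances, 36 were 1 residue, 85 were at most 3 and 12 were over 20. As a result 67 members (33.5%) had another member directly beside them and 133 did not. The widest gaps ran from 1238 to 1278 (40 residues), 410 to 449 (39), 1329 to 1367 (38), 894 to 926 (32) and 1091 to 1120 (29). Mean occupancy between the members at those ends was 0.662, 0.410, 0.230, 0.588 and 0.447 in the same order, so the gap from 1329 to 1367 was the emptiest of the 5.

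Direct neighbours formed 27 pairs, 3 runs of 3 and 1 run of 4. The run of 4 was 33 to 36 in the N-terminal region, with 1.51% of reads. The runs of 3 were 741 to 743 in the regulatory region (0.729%), 165 to 167 in the first membrane domain (0.704%) and 595 to 597 in NBD1 (0.372%). The pair with the most reads was 1011 and 1012 (1.28%). The run of 4 differed widely between replicates, with 1.77% ± 1.81 for WT (SD, n = 5), 1.72% ± 1.32 for High-abc (SD, n = 5), 0.878% ± 0.127 in High-Leu558 and 0.997% ± 0.0438 in the restored construct (SD, n = 2 each). The run 595 to 597 held 0.206% ± 0.0444 for WT and 0.567% ± 0.188 for High-abc (SD, n = 5 each). It held 0.333% ± 0.0905 for High-Leu558 and 0.339% ± 0.121 for the restored construct (SD, n = 2 each), which differed by less than their SDs.

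Neighbouring pairs divided their reads in either direction. Over the 36 pairs, the later residue took on average 47.4% ± 3.03 of the pair's reads (SD, n = 14 libraries; 40.5 to 52.3%). This average hides pairs that were far from even: the mean over libraries lay outside 40 to 60% at 23 pairs. The later residue took 9.92% of the pair 375 and 376, 11.3% of 1075 and 1076, 76.2% of 100 and 101 and 76.4% of 665 and 666. In 20 pairs most reads lay on the earlier residue and in 16 on the later. With reads summed over pairs, which weights the largest peaks, the later residue took 43.1%.

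Members stood out from the residues around them. Sharpness was measured as the percent of the reads in a window of 11 residues, 5 on either side, that fell on the member itself. An even spread would give 9.09%, and the median over all 1440 residues was 5.93%. The median member held 24.5% of its window (quartiles 16.8 and 33.2%), 103 members were the highest residue in their window and 22 held more than 50% of it. In single libraries the median sharpness of members was 22.9% ± 1.48 (SD, n = 14).

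The highest members were also the sharpest. A member's own reads are the numerator of its sharpness, so level and sharpness are linked by definition. The median was 54.1% for the 20 highest, 32.0% for the 100 highest and 17.9% for the lowest 100. The sharpest were residue 1308 (94.5%), residue 948 (80.4%), residue 732 (72.3%), residue 375 (70.4%) and residue 1302 (69.9%). Residue 1302 shows that a sharp peak need not be a high one: its mean share was 0.319%, rank 39, and its window ended just before residue 1308. The broadest were residue 953 (5.74%), residue 1076 (6.64%), residue 1014 (7.82%), residue 376 (7.98%) and residue 29 (8.09%). Each of these 5, which alone lay at or under the even share, was within 5 residues of a higher member: 948, 1075, 1011, 375 and, for residue 29, residues 26 and 33.

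**Figure D3:**
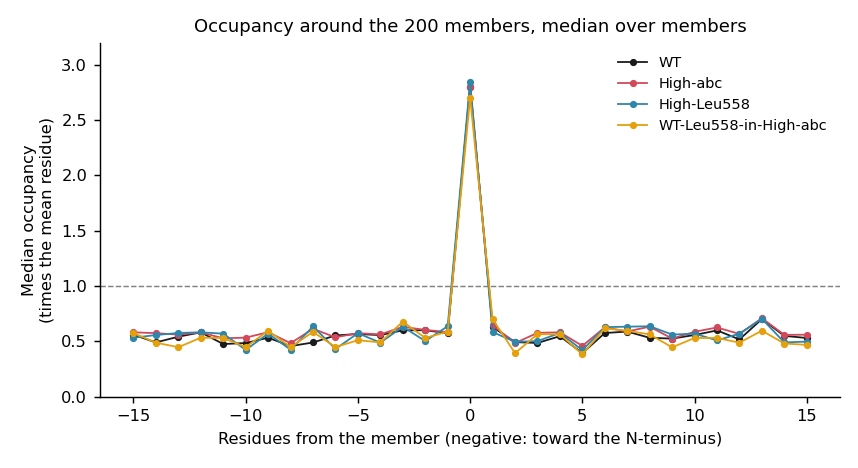
Median over the 200 members of occupancy in times the mean residue (vertical axis) at each distance from the member in residues (horizontal axis), 1 line per construct; the dashed line is the mean residue. The 4 lines lie on each other, with a single-residue peak at 0, where the median over all libraries is 2.71, and every other position below the mean residue. The median over all 1440 residues, 0.525, is also below the mean residue.

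For the median member, occupancy fell below that of the mean residue within 1 residue on either side. The median over all 1440 residues was 0.525, so a typical residue also lay below the mean residue. Over all libraries, the median occupancy was 2.71 at the member and between 0.450 and 0.696 at each distance from 1 to 15 residues before or after it. The mean over members, to which neighbouring members and large peaks add, was 3.87 at the member, 1.25 directly before it, 1.08 directly after it and at most 1.32 at any other distance (3 residues before). The median profile was alike in the 4 constructs, as the plot of occupancy around the members shows. The median sharpness in single libraries was 22.3% ± 1.38 in WT, 22.6% ± 1.79 in High-abc (SD, n = 5 each), 24.0% ± 1.38 in High-Leu558 and 23.7% ± 0.327 in the restored construct (SD, n = 2 each).

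Across constructs, the mean levels of most members lay within 2 times of each other. The highest of the 4 construct means divided by the lowest had a median of 1.90 over members (quartiles 1.55 and 2.47). It was under 2 at 112 members, from 2 to 4 at 75 and over 4 at 13. For the 1225 residues with reads in every construct the median was 2.57, and those residues include many with few reads. Of the 200 members, 181 lay above the mean residue in the average of each of the 4 constructs, and 62 did so in every library. Among the 20 highest the ratio was at most 3.61.

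Each construct's own 200 highest residues were mostly members: 172 in WT, 174 in High-abc, 161 in High-Leu558 and 155 in the restored construct. A core of 109 residues stood in all 4 lists, and every one of them was a member. All members stood in at least 1 of the lists, which together named 313 residues. The members were chosen from the mean of these same libraries, in which WT and High-abc weigh most. The overlaps and their order are therefore partly set by the rule. A single library's own 200 highest residues shared between 109 and 152 with the members.

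Between libraries of the same construct, members varied by more than counting error. The median coefficient of variation was 56.8% in WT, where counting alone gives 31.3%, and 60.3% in High-abc, where it gives 31.7%. For the 20 highest members, which have the most reads, it was 50.4% in WT against 16.5% from counting, and 59.8% in High-abc against 16.2%. The gap was wider at these 20 than over all members.

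Much of this spread followed the replicate number of the labels, in WT and High-abc alike. Residue 33 was highest in replicate 3 of both, with 0.515, 0.605, 2.03, 0.392 and 0.581% in WT replicates 1 to 5 and 0.555, 1.02, 1.63, 0.497 and 0.597% in High-abc. Residue 1221 did the same, with 0.249, 0.228, 1.60, 0.357 and 0.352% in the WT libraries and 0.185, 0.214, 1.38, 0.315 and 0.226% in the High-abc ones. Residue 245 was low there, with 0.302, 0.241, 0.0391, 0.838 and 0.827% in the WT libraries and 0.241, 0.232, 0.0417, 0.869 and 0.895% in the High-abc ones. In each case replicate 3 of both constructs lay outside the range of the other 8 libraries of these constructs. Replicate 3 was the shallowest library of both, with 2560 reads in WT and 2396 in High-abc. Its low values at residue 245 rest on 1 read in each construct.

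Residues 666 and 320 were highest in replicate 2 and next in replicate 1 of both constructs. Residue 666 held 0.905, 1.64, 0.508, 0.214 and 0.141% in the WT libraries and 0.907, 1.91, 0.292, 0.315 and 0.237% in the High-abc ones. Residue 320 held 0.746, 1.39, 0.0781, 0.214 and 0.229% in the WT libraries and 0.870, 1.16, 0.125, 0.392 and 0.278% in the High-abc ones. Residue 449 was high in replicates 3 and 5, with 0.462, 0.348, 1.05, 0.196 and 1.04% in the WT libraries and 0.370, 0.196, 1.04, 0.210 and 1.08% in the High-abc ones. The 4 other libraries held 0.298 and 0.550% (High-Leu558) and 0.501 and 1.01% (restored) at residue 449, so the 2 libraries of 1 construct were also far apart there.

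The sum of squares of the log2 share (0.5 reads added) over the 10 WT and High-abc libraries was split for each member into a part between replicate numbers, a part between the constructs and a rest. This description was added after the values were seen. The 0.5 reads were added at every residue, which draws shares toward the mean residue, most in the shallowest libraries (replicate 3 of both). Whether depth added to the part between numbers was not tested. The part between numbers had a median of 70.5% over members and the part between constructs 3.47%; an even split by degrees of freedom would give 44.4 and 11.1%. The number took more than the construct at 187 of the 200 members, and at all of the 20 highest, where the medians were 92.3 and 1.63%. The 115 other residues with enough reads to be tested had medians of 63.7 and 3.51%. The same replicate number was highest in WT and in High-abc at 102 members (51.0%) and at 42.6% of those other residues.

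**Figure D4:**
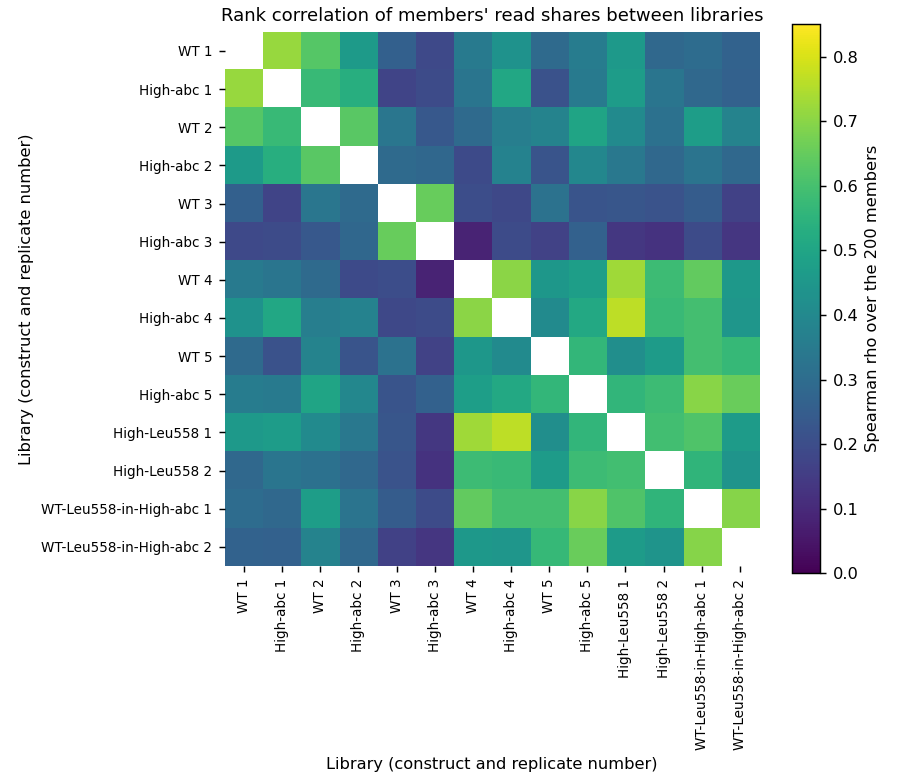
Spearman's rho of the 200 members' shares (colour) between every pair of the 14 libraries, with WT and High-abc libraries of the same replicate number placed side by side. The 5 same-number pairs of WT and High-abc run from 0.563 to 0.719 and form bright blocks along the diagonal, against 0.0835 to 0.574 for pairs of different number.

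The ranks of the members showed the same. As a description over the 200 members, which share the list and the depth of their libraries, Spearman's rho between a WT and a High-abc library of the same number ran from 0.563 to 0.719 (5 pairs, median 0.653). For WT and High-abc libraries of different number it ran from 0.0835 to 0.574 (20 pairs, median 0.263). Within a construct the median was 0.327 in WT and 0.365 in High-abc (10 pairs each), lower than between constructs at the same number. The 2 libraries of High-Leu558 had a rho of 0.593 and those of the restored construct 0.696. High-Leu558 replicate 1 was closest to High-abc replicate 4 (0.766) and WT replicate 4 (0.728), and not to replicate 1 of either (0.470 and 0.456). What a number stands for is not given in the labels.

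The constructs were compared at every residue with enough reads by edgeR's quasi-likelihood test, fitted on all 14 libraries and adjusted over the 314 residues tested. Of the members 199 passed the filter on low counts; residue 741 did not. A member whose level is high in 1 construct can owe its place in the list to that construct, and the mean over libraries weights WT and High-abc most. In this fit, which has no term for the replicate number, few members differed. In High-abc against WT 2 members passed an adjusted p of 0.05, and 0.637% of all residues tested did. In High-Leu558 against WT 1 passed, with 0.318% of all residues. In the restored construct against High-abc 2 passed, with 0.637%. Every residue that passed in these 3 comparisons was a member, but so were 199 of the 314 residues tested. The calls were at Leu558 and residue 559 alone. The median size of the members' log2 change was 0.23, 0.44 and 0.44 in these comparisons, against 0.28, 0.53 and 0.48 over all residues tested. The first of them and the third share the High-abc libraries, and the first and the second share WT. The median SE was 0.54, 0.69 and 0.69, and the smallest change to pass was 2.88 in size. In each comparison the median change was smaller than the median SE, so this fit could not resolve changes of that size.

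Most of the members with large differences between constructs lay at Leu558 and in the 40 residues after it. Of the 13 members from Leu558 to residue 598, 8 had construct means more than 4 times apart, against 5 of the 187 members elsewhere. This stretch was chosen after the values were seen, so its counts are a description. A residue high in 1 construct can enter the list through that construct, so the rule itself can bring in members with large ratios. In the stretch 8 of the 13 members lay at or under the mean residue in some construct, against 11 of the 187 elsewhere. Residues outside the list were not counted for this contrast. The median ratio was 4.64 in the stretch and 1.84 elsewhere. Between WT and High-abc, the construct took more of the sum of squares than the number at 8 of the 13 and at 5 of the 187. The median part of the construct was 41.9% in the stretch and 3.14% elsewhere. These 13 members were also broader, with a median of 16.9% of their window against 25.4%, and held 2.21% of reads in all. Most of them were among the lowest 100 members of the list, whose median was 17.9%.

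Leu558, rank 27 in the list, owed its place mainly to WT. It held 1.30, 0.953, 0.977, 0.571 and 0.634% in the WT libraries, 0.0185, 0.0536, 0.0417, 0.0191 and 0.0206% in those of High-abc, 0.0385 and 0% in High-Leu558 and 0.342 and 0.238% in the restored construct. All WT libraries lay above all others, and the restored libraries lay between them and the rest. Its ratio of construct means, 46.1, was the largest of all members. This ratio rests on 4 reads in High-Leu558, so its size is uncertain. By edgeR it fell in High-abc against WT (log2 change -4.88, SE 0.65, adjusted p = 2.46e-07) and in High-Leu558 against WT (-5.43, SE 0.96, adjusted p = 0.00022). It rose in the restored construct against High-abc (3.26, SE 0.74, adjusted p = 0.00777). Without High-Leu558 replicate 2 the second of these did not pass (log2 change -4.52, edgeR adjusted p = 0.208), and without replicate 1 of the restored construct the third did not (2.91, edgeR adjusted p = 0.527). Each of these fits leaves a construct with 1 library, which is assumed to vary like the other constructs.

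Residue 559, directly after it, ranked 156. It held 0.0533, 0.215, 0.0781, 0.321 and 0.299% in the WT libraries, 0.0185, 0, 0, 0.0382 and 0.0412% in those of High-abc, 0.0385 and 0.0102% in High-Leu558 and 0.442 and 0.358% in the restored construct. Here the restored libraries were the highest of all, above every WT library. By edgeR it fell in High-abc against WT (-2.88, SE 0.66, adjusted p = 0.0103) and rose in the restored construct against High-abc (3.87, SE 0.73, adjusted p = 0.000722). Without replicate 1 of the restored construct the log2 change was 3.67 and the edgeR adjusted p 0.0641, again with 1 library left in that construct. In High-Leu558 against WT it did not pass (-2.95, SE 0.89, edgeR adjusted p = 0.261). In the alpha-subdomain region, to which both residues belong, members held 49.1% ± 10.8 of the region's reads in WT, 30.9% ± 5.21 in High-abc (SD, n = 5 each), 28.5% ± 2.69 in High-Leu558 and 34.1% ± 5.20 in the restored construct (SD, n = 2 each). The region has only 6 members, so this share includes the change at Leu558 and residue 559. Together they held 1.08% of all reads in WT, 0.0503% in High-abc, 0.0436% in High-Leu558 and 0.690% in the restored construct. The region's share was not computed without them.

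With the replicate number as a block and all libraries in the fit, 4 members passed in High-abc against WT, and 1.27% of all residues tested did. Besides Leu558 and residue 559, residue 569 (log2 change 2.35, SE 0.63) and residue 595 (2.05, SE 0.55) rose, both with an edgeR adjusted p of 0.0430. When the block was used on the 10 libraries of these constructs alone, over the same 314 residues, 2 passed (Leu558 and residue 559). In the comparisons that involve the groups of 2, the block over all libraries raised the count from 1 to 16 members in High-Leu558 against WT (6.05% of all residues tested) and from 2 to 26 in the restored construct against High-abc (8.92%). For these groups the numbers were not shown to pair, and High-Leu558 replicate 1 resembled replicate 4 of WT and High-abc more than replicate 1, as given above. Without the block, leaving out High-abc replicate 3 also gave 4 calls, the same residues.

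**Figure D5:**
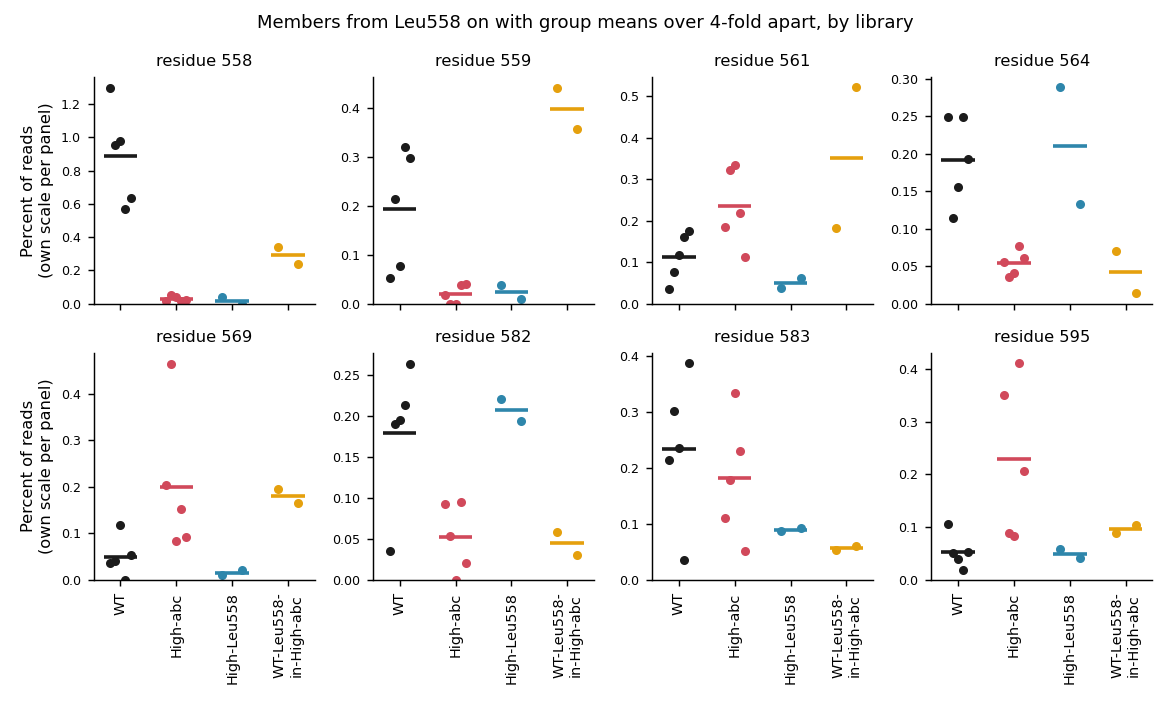
Percent of reads in each library (points) and the mean of each construct (lines) at the 8 members from Leu558 to residue 595 whose construct means lay more than 4 times apart; each panel has its own linear scale from 0. At Leu558 and residue 559 the constructs with the WT Leu558 codon are high, and at residue 564 every library of WT and High-Leu558 lies above every library of High-abc and of the restored construct.

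The codons of High-abc other than that of Leu558 were compared by setting High-abc and the restored construct (7 libraries) against WT and High-Leu558 (7 libraries), with constructs weighted equally. Of the members 3 passed in edgeR, and 1.27% of all residues tested did. All 3 were within 11 residues after Leu558. Residue 569 held 0.0835 to 0.464% of reads in the libraries with the High-abc codons (median 0.164%) and 0 to 0.117% in the others (median 0.0355%). Its log2 change was 2.85 (SE 0.63, edgeR adjusted p = 0.0122), and 5 of the 7 libraries with the High-abc codons lay above all the others. Residue 561 held 0.113 to 0.522% (median 0.220%) against 0.0355 to 0.176% (median 0.0760%). It rose by 1.91 (SE 0.50, edgeR adjusted p = 0.0410), with 6 of 7 libraries above all the others.

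Residue 564, between them, changed the other way. It held 0.0149 to 0.0764% with the High-abc codons (median 0.0555%) and 0.114 to 0.289% without them (median 0.194%), and its log2 change was -1.88 (SE 0.51, adjusted p by edgeR = 0.0471). The 2 sets of libraries did not overlap. The residue before Leu558, residue 557, which is no member, also rose (4.16, SE 0.98, edgeR adjusted p = 0.0148). It held 19 reads in WT, 50 in High-abc, 0 in High-Leu558 and 24 in the restored construct. The size of its change thus rests on a construct without reads. At residue 557 the 2 sets of libraries overlapped, and the ratio of their mean shares was 5.98. Residue 582 had a log2 change of -1.84 (SE 0.55) and did not pass (edgeR adjusted p = 0.0911), although 6 of the 7 libraries without the High-abc codons lay above all those with them. Residue 595 had a log2 change of 1.53 (SE 0.55) and did not pass (edgeR adjusted p = 0.286).

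These 3 calls rest on few reads, between 132 and 194 per residue over all libraries, and did not all pass when single libraries were left out. No member passed without High-abc replicate 2, High-Leu558 replicate 1, High-Leu558 replicate 2 or replicate 1 of the restored construct; the lowest edgeR adjusted p of a member was then 0.0793, 0.213, 0.132 and 0.0572, with 9, 6, 6 and 8 members at an unadjusted p under 0.05. The last 3 of these fits leave a construct with 1 library, which is assumed to vary like the other constructs. The log2 changes stayed between 2.55 and 3.15 at residue 569, 1.46 and 2.17 at residue 561 and -2.73 and -1.54 at residue 564 with each library left out in turn. Residue 569 passed in each of the other 10 fits that left out 1 library, and was the only member to pass without WT replicate 1, High-abc replicate 3 or replicate 2 of the restored construct. Residue 561 passed in 7 of the 14 such fits and residue 564 in 3. With DESeq2 the same 3 residues passed. With the replicate number as a block 5 passed, with 1.91% of all residues tested, which added residue 582 (-1.86, SE 0.50, edgeR adjusted p = 0.0326) and residue 88 (0.88, SE 0.24, edgeR adjusted p = 0.0326). The direction at each of the 3 was the same in every fit.

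Tested for any difference among the 4 constructs, 3 members passed in edgeR, with 1.27% of all residues tested: Leu558 (adjusted p = 3.82e-08), residue 559 (0.000278) and residue 569 (0.0295). With the replicate number as a block 34 members passed, with 12.4% of all residues tested, under the same limit on the numbers of the groups of 2. Residue 569 also had the third largest ratio of construct means, 13.3. This ratio rests on 3 reads in High-Leu558, whose counting interval alone allows 4.55 to 64.5. Residue 569 did not pass without High-abc replicate 2 (edgeR adjusted p = 0.333), High-abc replicate 4 (0.0505), High-Leu558 replicate 1 (0.241) or High-Leu558 replicate 2 (0.169); the last 2 fits leave 1 library in High-Leu558.

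Of the other members with large ratios, residues 583 (4.16) and 595 (4.64) lay in the same stretch and 503 (5.10) and 953 (4.18) elsewhere. Residue 583 held 0.234% ± 0.130 in WT, 0.181% ± 0.109 in High-abc (SD, n = 5 each), 0.0891% ± 0.00362 in High-Leu558 and 0.0563% ± 0.00465 in the restored construct (SD, n = 2 each). The WT libraries ran from 0.0357 to 0.387% and overlapped every other construct. Residue 503 held 0.0710, 0.0918, 0.547, 0.0357 and 0.387% in the WT libraries and 0.0925, 0.0536, 0.459, 0.105 and 0.134% in the High-abc ones, with replicate 3 highest in both, and 0.0481 and 0.0407% in High-Leu558. Residue 953 held 0.284, 0.272, 0.156, 0.0891 and 0.0352% in the WT libraries and 0.278, 0.393, 0.125, 0.0764 and 0.0515% in the High-abc ones, with replicates 1 and 2 high in both, and 0.0577 and 0.0306% in High-Leu558. At residues 503 and 953 the spread between replicate numbers covered the difference between constructs, and neither passed in any of the 5 comparisons.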

How the data were processed

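Ribosome footprints were sequenced from 14 libraries of HEK293 cells overexpressing CFTR. Per the labels' protocols, RNase I trimmed the mRNA, ribosomes were pelleted, and the protected fragments became libraries through a ligated linker, circularized cDNA, removal of rRNA and PCR. HISAT2 and hg38 are named in the submitters' processing notes. The sequence mapped to is not given in the sources used here, nor is the way a read was placed. Per the file headers, the deposited files give a read count and a percent of reads per residue. The deposited percent equalled that from the counts within 0.0005, so shares were recomputed from the counts over residues 21 to 1460, which leaves out 20 at either end. The authors' files mention no molecular identifiers, so intervals (95%, exact binomial) and limits for 0 reads (3 counts) cover counting error only.

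Changes were tested in R 4.3.3 with edgeR 4.0.16 and limma 3.58.1, using filterByExpr, TMM scaling, 1 term per construct over all 14 libraries, glmQLFTest, and Benjamini-Hochberg adjustment over the 314 residues left. Beyond counting, libraries of a construct varied by a common coefficient of variation of 53.4%. Alternatives were library totals, DESeq2 1.42.0, other filters, the ends kept, the replicate number as a block, only WT and High-abc, other list sizes and windows, and each library left out. Other values came from Python 3.11.15 (numpy 2.4.6, pandas 2.3.3, scipy 1.17.1). The edgeR fit without a block was tested on simulated data for the comparison of the High-abc codons alone. The simulated libraries were independent, shared the common coefficient of variation and had no effect of the replicate number. The fits with a block and DESeq2 were not tested in this way.

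WT and High-abc share the replicate numbers 1 to 5. For each of the 5 numbers, the deviations of its WT and its High-abc library from their construct means were correlated, with r between 0.403 and 0.566; over the 20 pairs of unlike number the median was -0.169. The numbers therefore pair these libraries, a pairing taken from the data and not from the labels, and not shown for the groups of 2. The labels do not say that replicates were separate cultures. A p-value thus reflects the spread between these libraries alone, and that spread may be technical.

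The rule named the 20 highest members, 5 residues on either side of the list's limit, the 5 sharpest and 5 broadest members, the 10 with the largest ratio of construct means, the 5 longest runs, the 5 widest gaps and every member past an adjusted p of 0.05. Other residues were named after their values were seen. The members, lists and tests were chosen with earlier results of these data known. Amino acids and codons at the members were not analysed here.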

Additional observations from a re-analysis of the deposited data

Results flagged for a closer look

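The 40 residues left out at the ends, which no comparison uses, held between 2.44 and 4.08% of all reads in a library, above the limit that a count of 0 allows in each. With them kept, 9 of the 40 would stand among the 200 most occupied residues, 6 of them at the start of the chain. The highest is residue 7, with a mean of 0.426% of reads and rank 22.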

How the results depend on the processing

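A list of 100 members held 39.4% of reads, 17.0% of it had a direct neighbour in the list, and its median sharpness was 32.0%; a list of 300 gave 63.4, 48.3 and 18.1%. Windows of 3 and 10 residues on either side gave a median sharpness of 33.9 and 13.0%. The later residue of a pair took 43.1% with reads summed over pairs. With each library left out in turn, the share of reads ran from 53.3 to 54.1%, members with a neighbour from 31.0 to 34.0%, sharpness from 24.1 to 25.1%, the later residue from 47.0 to 47.9% and the median ratio of construct means from 1.85 to 2.13. Counts of members called by edgeR with each library left out ran from 2 to 4 in High-abc against WT, from 0 to 1 in High-Leu558 against WT, from 0 to 2 in the restored construct against High-abc, from 0 to 4 for the High-abc codons and from 2 to 4 for any difference. With residues of a mean of at least 20 reads, which left 83 members, the counts were 1 in High-abc against WT, 1 in the restored construct against High-abc, 0 for the High-abc codons (1 at an unadjusted p under 0.05; DESeq2 with the usual filter called 3) and 1 for any difference; residues 559, 561, 564 and 569 were not tested there. With no filter the High-abc codons gave 1. Fitting and filtering on the 10 WT and High-abc libraries alone, 1 member passed without and 1 with the replicate block. With the replicate number as a block over all libraries, the counts were 4 in High-abc against WT, 16 in High-Leu558 against WT, 26 in the restored construct against High-abc, 5 for the High-abc codons and 34 for any difference; the cause was not tested, and this block joins the numbers of the groups of 2, for which no pairing was shown. No direction was reversed in any fit. Over all fits, the edgeR or DESeq2 adjusted p at Leu558 ran from 5.73e-13 to 4.75e-05 in High-abc against WT, from 1.56e-09 to 0.208 in High-Leu558 against WT and from 0.000653 to 0.527 in the restored construct against High-abc. At residue 559 it ran from 0.00168 to 0.0445 in the first and from 5.22e-05 to 0.0641 in the third. For the High-abc codons it ran from 0.00279 to 0.213 at residue 569 (past 0.05 in 15 of 19 fits), and from 0.00594 to 0.668 at residues 561 (11 of 19) and 564 (6 of 19). Depth limits single members: the median member had 4.0 reads in the shallowest library. The planned description of amino acids and codons at the members was not run.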
